A study of Mus musculus with 4 samples.

Results

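Runx3 binding was described at 9 genes for C-type lectin receptors of myeloid cells, Clec12a, Clec7a, Clec4a1, Clec4a2, Clec4a3, Clec4a4, Clec4n, Clec10a and Cd209a. A peak was counted for a gene where its centre lay in the gene body or within 20 kb of it, with genes from the GENCODE M1 annotation on mm9. The 9 genes were among 22380 annotated protein-coding genes, and this rule placed 8 of the 15121 deposited peaks at them. The data are Runx3 ChIP-seq of CD11chiMHCII+CD4+ DC, conventional dendritic cells sorted from the spleens of mice without a Runx3 mutation or treatment named in the labels. The Runx3_IP group holds 2 immunoprecipitates made with a home-made polyclonal anti-Runx3 antibody, and the input group holds 2 samples of whole cell extract chromatin as control. Each sample came from approximately 15 pooled mice of the C57BL/6 strain, which the labels spell C57BL/7 for 1 input sample. All 4 samples entered 1 peak call, so a peak has 1 score, no spread between replicates and no test between groups. No expression was measured in this series, so the labelled cell type could not be checked against its markers, and the mRNA of the receptors is not described here.

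C-type lectin receptors are membrane proteins with which DC and macrophages bind sugars of microbes and of host cells. Some of them carry an inhibitory motif in their cytoplasmic tail, as Clec12a, Clec4a2 and Clec4a4 do, whereas Clec7a and Clec4n activate the cell after binding fungal cell wall sugars. Runx3 is a transcription factor of the Runt domain family, whose members bind DNA at the RUNX hexamer TGTGGT.

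Sequences from the peaks, and a Clec4a3 block outside them, are given first. They are on the plus strand of mm9 and 5′ to 3′, with each TGTGGT in capitals. The promoter stretch of 230 bp of Clec4a1, at chr6:122871632-122871861, is shown because it lies in the highest of the peaks. The block of 64 bp that opens the matching stretch of Clec4a2 lies at chr6:123073270-123073333 and that of Clec4a3 at chr6:122902594-122902657. They are shown because the Clec4a2 block lies in a peak and the Clec4a3 block does not. Neither of these blocks holds a TGTGGT.
Clec4a1 promoter: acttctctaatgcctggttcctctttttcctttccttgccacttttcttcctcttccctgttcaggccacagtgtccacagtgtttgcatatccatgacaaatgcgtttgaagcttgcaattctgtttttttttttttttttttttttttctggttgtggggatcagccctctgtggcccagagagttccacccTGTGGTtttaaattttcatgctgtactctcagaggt
Clec4a2 block: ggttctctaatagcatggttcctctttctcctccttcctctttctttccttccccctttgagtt
Clec4a3 block: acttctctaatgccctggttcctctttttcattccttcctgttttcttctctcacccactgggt

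The central 200 bp of 3 further peaks are shown because they are the highest peaks of Clec12a, at chr6:129300033-129300232, of Clec4n, at chr6:123177673-123177872, and of Clec4a3, at chr6:122922795-122922994. The Clec4n sequence has no capitals, since no TGTGGT was found in that peak.
Clec12a: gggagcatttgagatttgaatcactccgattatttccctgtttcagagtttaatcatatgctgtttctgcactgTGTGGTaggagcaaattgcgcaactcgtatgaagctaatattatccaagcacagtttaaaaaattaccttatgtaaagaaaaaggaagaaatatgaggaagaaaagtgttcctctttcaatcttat
Clec4n: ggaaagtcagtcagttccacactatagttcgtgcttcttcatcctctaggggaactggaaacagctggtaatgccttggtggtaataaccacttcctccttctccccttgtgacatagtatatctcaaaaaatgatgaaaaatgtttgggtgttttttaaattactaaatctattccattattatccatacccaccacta
Clec4a3: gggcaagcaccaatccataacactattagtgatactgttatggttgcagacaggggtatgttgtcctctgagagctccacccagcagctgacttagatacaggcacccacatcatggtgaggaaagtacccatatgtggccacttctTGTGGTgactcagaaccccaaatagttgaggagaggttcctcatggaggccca

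Of the 9 genes, 6 had at least 1 peak, or 66.7%. The Wilson interval at 95% confidence ran from 35.4% to 87.9%, and this interval, like those that follow, reflects counting error alone. The same rule called 50.4% of all protein-coding genes, a value inside this interval. The 6 genes were Clec12a with 3 peaks, Clec4a4 with 2, and Clec4a1, Clec4a2, Clec4a3 and Clec4n with 1 each, and 1 peak was shared by Clec4a3 and Clec4a4. All 8 peaks lay on chromosome 6, where 7 of the 9 genes lie. No peak was called for Clec7a, Clec10a or Cd209a. A peak with a score of 23.2 or more, the upper quartile of the whole list, was found at 4 of the 9 genes. This was 44.4% (18.9% to 73.3%), and the share of protein-coding genes, 20.1%, lay inside this interval. These 4 were Clec4a1, Clec12a, Clec4n and Clec4a4. The windows searched were of like length, with a median of 57.2 kb for the 9 genes and 55.4 kb for protein-coding genes.

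MACS2 gave each peak a score in a unit that the sources do not name, so scores were only ranked and set against the rest of the list. The median score was 34.7 for the 8 peaks and 12.1 for all peaks, and with a limit of 50 kb it was 17.3 over 19 peaks. The peaks ran from 7.68 to 75.08 in score. The upper quartile was reached by 5 of 8 (62.5%, interval 30.6% to 86.3%) and by 25.4% of all peaks, a value below this interval. The interval reflects counting error alone, and the genes were listed with earlier results of these data known. The median width of the 8 peaks was 520.5 bp, against 406.0 bp for the whole list. The plot of score against width sets the 8 peaks among all others, of which the wider ones tended to have the higher scores.

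**Figure D1:**
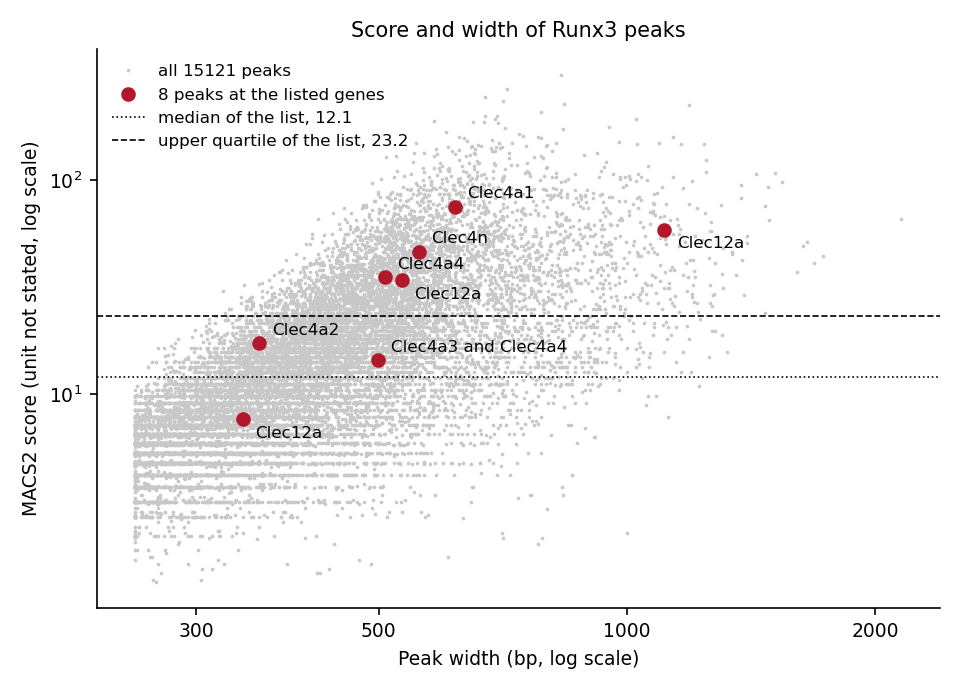
Score (unit not stated, log scale) against width in bp (log scale) of every deposited Runx3 peak (grey) and of the 8 peaks at the C-type lectin receptor genes (red), with the list's median of 12.1 as a dotted line and its upper quartile of 23.2 as a dashed line. Of the red points, 5 lie above the dashed line, 2 between the lines and the weakest Clec12a peak, at 7.68, below both.

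Among the inhibitory receptors, Clec4a4 had a peak at its promoter. Clec4a4, also called DCIR2, is the antigen of the antibody 33D1 and a known surface marker of CD4+ splenic DC. The peak at chr6:122939933-122940440 had a score of 35.17, rank 2001 of the list, and its centre lay 199 bp upstream of the TSS at position 122940385. It held 2 hexamers. A peak of at least this score was found at 12.1% of protein-coding genes. The second Clec4a4 peak, at chr6:122922646-122923144, was weaker, with a score of 14.49 and rank 6416, and lay 17490 bp upstream of the TSS.

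Clec4a2, or DCIR1, carries the same kind of inhibitory motif. Its peak at chr6:123073177-123073534 had a score of 17.32, rank 5238, and was the narrowest but 1 of the 8 with 358 bp. The annotation gives this gene 6 TSS over 7 transcripts, and the peak lay in exon 1 of the longest transcript, with its centre 21 bp downstream of the TSS at 123073334. From the most upstream TSS of the gene the centre was 16909 bp away, so that the call of a promoter peak depended on the transcript. The peak held 2 hexamers.

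Clec12a, the third inhibitory receptor, had the most peaks, 3 in its window, a number reached by 14.0% of protein-coding genes. The highest, at chr6:129299579-129300688, had a score of 58.55, rank 726, and was the widest of the 8 with 1110 bp. It lay in intron 2 of the longest transcript, 7424 bp downstream of the most upstream TSS, and 129 bp upstream of the TSS at 129300262 of another protein-coding transcript. It held 3 hexamers, the nearest 24 bp from the peak centre. A peak this high was found at 4.59% of protein-coding genes.
The other Clec12a peaks lay upstream of the gene and closer to the neighbouring gene 4922502D21Rik. The peak at chr6:129283641-129284173, with a score of 34.2, lay between the genes, 8802 bp upstream of Clec12a and 2093 bp upstream of the TSS of 4922502D21Rik. The peak at chr6:129276167-129276508, with a score of 7.68 and rank 10889, lay in intron 3 of 4922502D21Rik, 16372 bp upstream of Clec12a. By nearest TSS both would be given to 4922502D21Rik and only the intronic peak to Clec12a. Each of them held 1 hexamer.

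Clec4a1 and Clec4a3 belong to the DCIR family with Clec4a2 and Clec4a4. The peak with the highest score of all 8 was at the Clec4a1 promoter, at chr6:122871405-122872022. Its score of 75.08 ranked 400 in the list, and a peak this high was found at 2.52% of protein-coding genes. The centre lay 153 bp upstream of the TSS at 122871866, and the 1 hexamer, at position 122871826, lay 40 bp upstream of that TSS and 115 bp from the centre. This was also the peak of the 8 with the letters TGACGT, which 11.0% of all peaks hold.
Clec4a3 had no peak at its promoter. The peak counted for it is the one shared with Clec4a4, which lay 3002 bp beyond the 3′ end of Clec4a3 and held 1 hexamer. A peak of at least this score, 14.49, was found at 30.2% of protein-coding genes. The Clec4a4 promoter peak lay 20293 bp from the Clec4a3 gene and was just outside the 20 kb limit.

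Clec4n, or Dectin-2, binds fungal mannans and signals through the Fc receptor gamma chain. Its peak at chr6:123177494-123178052 had a score of 46.24, rank 1226, and lay between genes, 2088 bp upstream of the TSS at 123179861. A peak of at least this score was found at 7.86% of protein-coding genes. This was the only peak of the 8 with no TGTGGT, and also no TGCGGT, on either strand. It was the only peak of the 8 with an IRF motif on either strand, which 6.48% of all peaks hold.

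The Clec4 genes lie side by side, and from the start of Clec4a1 to the end of Clec4n the stretch is 325 kb long. With the promoter peak of Clec4a1 it held 6 peaks, and the 1 that was not within 20 kb of a described gene lay at chr6:123120176-123120449 near Clec4b2, with a score of 4.79. Clec4b1 within the stretch, and Clec4d and Clec4e next to it, had no peak within 20 kb. Clec12a lies a further 6096 kb along the chromosome, in the cluster of lectin genes that also holds Clec7a.

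Clec7a, or Dectin-1, is the receptor for fungal beta-glucan. No peak centre lay within 20 kb of it. The nearest peak, at chr6:129444815-129445374, lay in intron 4 of the neighbouring gene Olr1, 22304 bp upstream of the Clec7a TSS, just beyond the limit. It had a score of 44.17 and held no TGTGGT. On the other side, a peak with a score of 85.54 at chr6:129384186-129384701 lay in intron 3 of Clec1a and within 20 kb of Clec9a. It was higher than any of the 8 peaks at the described genes and held 2 hexamers. Clec12b, between Clec12a and these genes, had no peak within 20 kb.

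**Figure D2:**
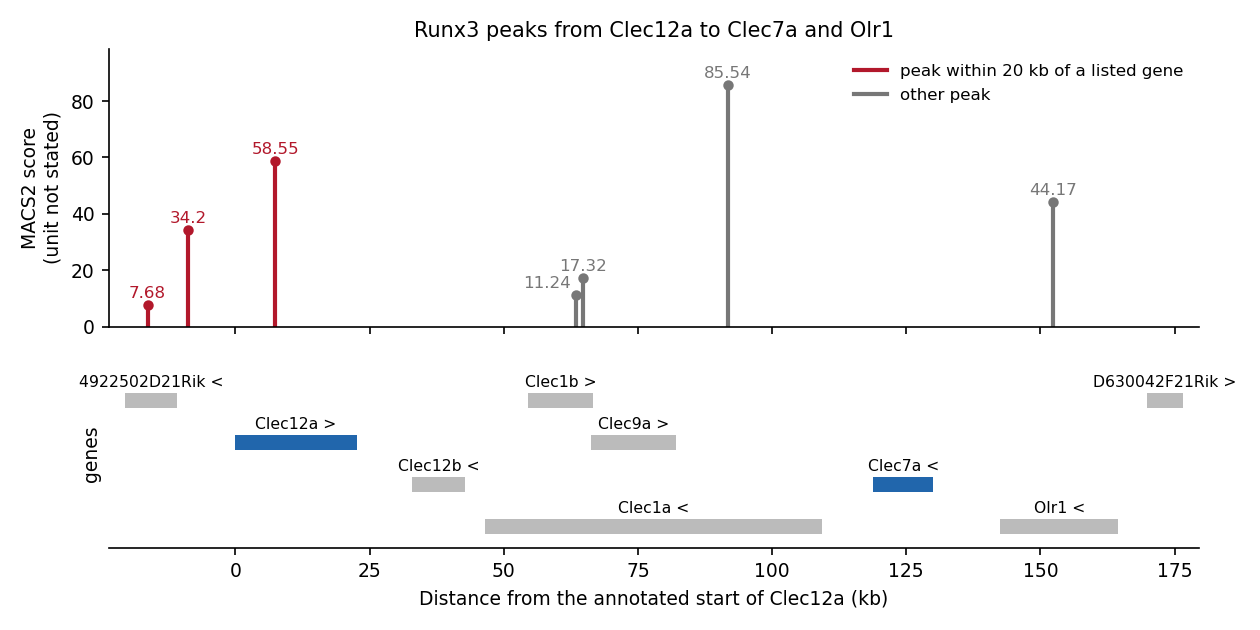
Runx3 peaks and annotated genes from Clec12a to beyond Clec7a, with distance from the annotated start of Clec12a in kb on the horizontal axis and the score of each peak (unit not stated) on the vertical axis; genes and strands are drawn as in the map of the Clec4 genes. Red peaks (7.68, 34.2 and 58.55) lie within 20 kb of Clec12a, and the grey peaks of 85.54 and 44.17 stand on either side of Clec7a without reaching its 20 kb window.

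Clec10a, or MGL1, binds galactose-type sugars, and Cd209a is a mouse homologue of human DC-SIGN. Neither had a peak within 20 kb. For Clec10a, at chr11:69980125-69984336, the first peak beyond the limit lay 50246 bp from the gene, at chr11:70034241-70034923 near Slc16a13, with a score of 34.2. For Cd209a, at chr8:3743395-3748984, it lay 31648 bp from the gene, within Clec4g at chr8:3711444-3712050, with a score of 58.1. Clec10a and Cd209a are the 2 members outside chromosome 6, and these were also the longest distances to a peak among the 9 genes. The absence of a peak means that none was called at the depth of the pooled samples, which was not analysed here.

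Parts of the Clec4a promoters were alike in sequence, and these comparisons were chosen after the peaks were seen. Only alignments of the Clec4a1 peak are given here. The Clec4a1 peak aligned to the Clec4a2 promoter over 132 columns with 71.2% identity. The aligned bases of Clec4a2 held no TGTGGT, and the Clec4a1 hexamer at 122871826 also lay outside the alignment. The peak at Clec4a1 had a score of 75.08 and that at Clec4a2 a score of 17.32.
For Clec4a3 the alignment covered no more than the first block, which matched the Clec4a1 peak with 88.2% identity over 51 columns. The Clec4a3 stretch of 230 bp held no TGTGGT and lay in no peak. It starts downstream of the Clec4a3 TSS at 122902533 and holds the TSS at 122902662, whereas the Clec4a1 stretch ends upstream of its TSS. Within 1 kb at the Clec4a3 promoter, 1 TGTGGT was found, against 3 at Clec4a1, 4 at Clec4a2 and 3 at Clec4a4. That no match was found in the stretch of 230 bp says only that these letters are not in it.

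Of the 8 peaks, 7 held TGTGGT on either strand, or 87.5% (interval 52.9% to 97.8%), and 54.0% of all peaks did. The share of all peaks lay inside this interval. The authors, who searched for motifs de novo, report the RUNX motif in a larger share of all bound regions. Here only the exact letters were counted. With a limit of 50 kb, 13 of 19 peaks at the described genes held TGTGGT, or 68.4%. At least 2 hexamers were found in 3 of 8, or 37.5% (13.7% to 69.4%), and in 18.5% of all peaks. In the central 200 bp the hexamer was present in 6 of 8, or 75.0% (40.9% to 92.9%), and in 41.8% of all peaks. The 8 peaks were wider than the list, and per kb of peak they held 2.43 hexamers against 1.82. Their base composition differed as well, with a median GC content of 41.4%, a range of 40.1% to 47.8%, and a median of 50.7% over all peaks. The ratio of observed to expected CpG had a median of 0.126, against 0.316. The part of width and base composition in the share with TGTGGT was not tested.

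**Figure D3:**
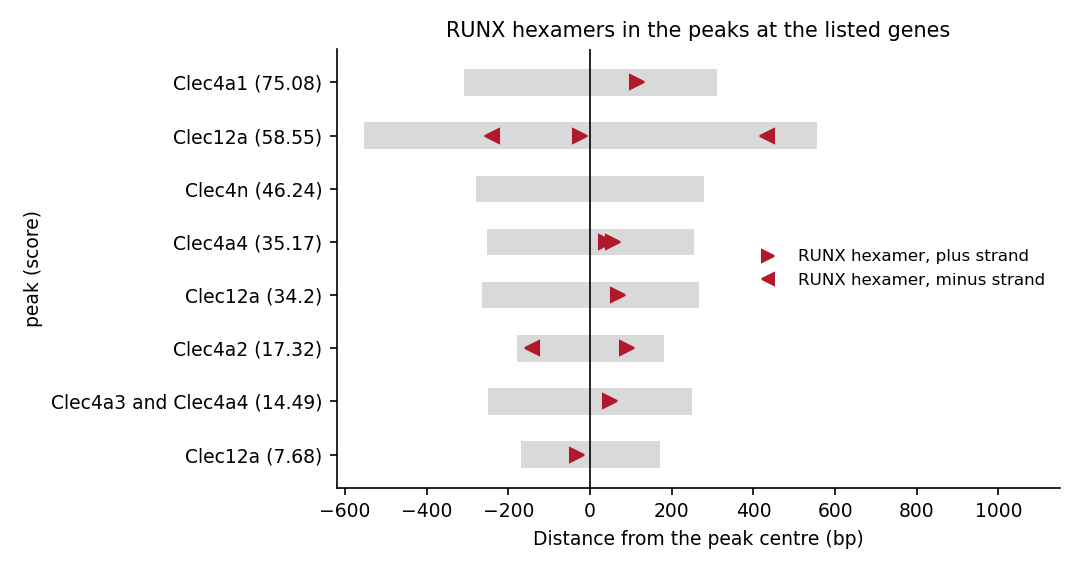
The 8 peaks at the described genes, each drawn as a grey bar to scale around its centre and named by its gene with its score in brackets; the horizontal axis is the distance from the peak centre in bp, and red triangles mark each TGTGGT, pointing right on the plus strand and left on the minus strand. The peak at Clec4n holds none, and the 11 hexamers of the others lie between -241 and 432 bp of the centre.

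Letters known for other factors were counted in the same way. TGCGGT, a variant of the RUNX hexamer, was in none of the 8 peaks, and in 20.1% of all peaks. GAGGAA, the core of PU.1 sites, was in 7 of 8 peaks and in 53.6% of all peaks. TTGCNNAA, of C/EBP factors, was in 3 of 8 and in 16.1%, and TGANTCA, of AP-1 factors, in 2 of 8 and in 13.2%. With 8 peaks, the intervals of these shares are wide, from 13.7% to 69.4% for 3 of 8.

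A centre within 1 kb of any annotated TSS was found for 4 of the 8 peaks, or 50.0% (21.5% to 78.5%), and for 38.0% of all peaks. The 4 were the peaks at Clec4a1, Clec4a4 and Clec4a2 and the intronic peak of Clec12a. The others of the 8 lay 2088 to 17490 bp from the nearest TSS. With a limit of 50 kb the share at the described genes was 36.8%, or 7 of 19.

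The members include close paralogs, and the authors kept reads that aligned to 1 place in the genome. Every 50 bp word of the 8 peaks occurred once in mm9, and the median share of such words over all peaks was 100% as well. In the windows searched, the share of such words was lowest for Clec4a4, at 63.7%, and highest for Clec12a, at 96.0%. Reads of 50 bp that lie wholly in the rest of these windows match more than 1 place, and the part of this in the number of peaks called was not tested. Around the most upstream TSS, over 1 kb on each side, the share was 100% for Clec4a3, Clec10a and Cd209a, 99.8% for Clec7a and 96.2% for Clec4n, which also had no peak within 1 kb of a TSS. Over all protein-coding genes the median of this share was 100%. The further TSS of Clec10a had shares down to 67.7%. At the most upstream TSS it was lowest for Clec4a2, at 80.3%, and its bound TSS at 123073334 had 100%.

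Lists of related genes were counted for comparison. Of 46 other C-type lectin genes, 24 had a peak within 20 kb, or 52.2% (38.1% to 65.9%), and 9 had one in the upper quartile of score, or 19.6%. Of 28 killer lectin receptor genes, which are known mainly from natural killer cells, 10 had a peak, or 35.7% (20.7% to 54.2%), and 3 had one in the upper quartile, or 10.7%. On chromosome 6 lie 18 of the former and 27 of the latter. The interval for the 9 described genes overlaps both of these intervals, but it is wide, and overlap of intervals is not a test. Neighbouring genes also share peaks. Whether the lists differ was not tested.

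**Figure D4:**
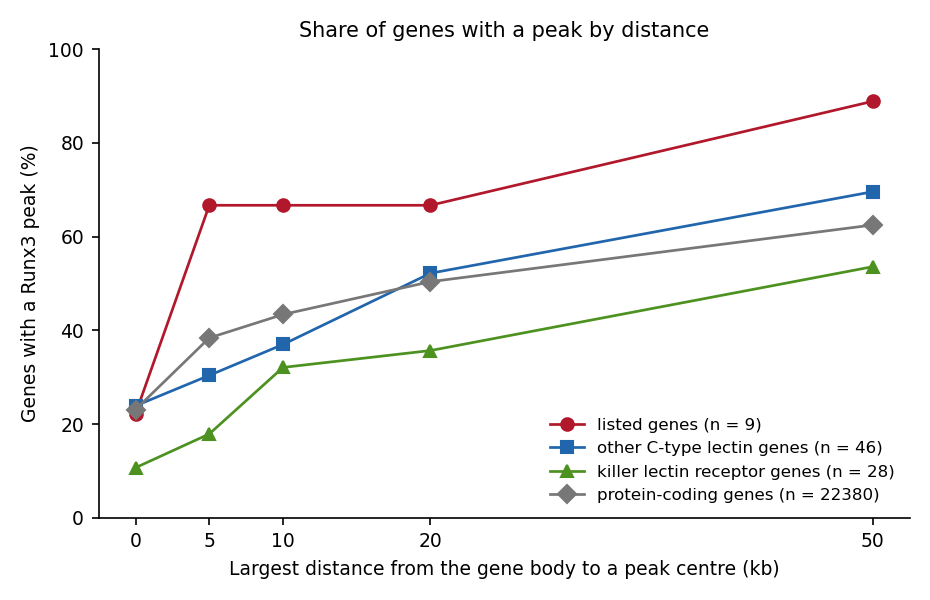
Share of genes (%) with a Runx3 peak centre within a given distance (kb, 0 meaning in the gene body) for the 9 described genes (red), 46 other C-type lectin genes (blue), 28 killer lectin receptor genes (green) and 22380 protein-coding genes (grey). The described genes rise from 22.2% in the body to 66.7% within 5 kb and 88.9% within 50 kb. Protein-coding genes are at 23.1%, 38.4% and 62.5% at these limits.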

How the data were processed

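Genomic DNA of 2 Runx3_IP and 2 input samples of splenic CD4+ DC was sequenced as reads of 50 bp from fragments of about 300 bp. The submitters' processing notes name CASAVA 1.8, Bowtie, MACS2 and mm9. Reads were aligned uniquely, and the authors called peaks once, on both immunoprecipitates against both controls. The deposited list gives a start, an end and a MACS2 score per peak, the last being a number whose unit the sources do not name. Other settings are not given in the sources used here, and depth per sample was not analysed here.

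Positions are on mm9, counted from 1, with sequence of the same assembly (NCBIM37) and genes of GENCODE M1. A peak was placed by its centre. Motifs were counted over the full peak on either strand. The share of words of 50 bp that occur once in the genome, on either strand, was counted for peaks and windows. The Clec4a1 peak was aligned to the genome with blastn 2.17.0 (e-value at most 1e-05). Some promoter sequences are not reported here. All 9 members are named, every peak at them is given, and neighbours are named where they share a window with a member or hold a nearby peak. Members and lists were chosen with earlier results of these data known. The scripts were tested on simulated data. With 1 list there are no replicate values, so no test was run. Alternatives were other distances, score limits, joined peaks, any base of the peak, assignment to the nearest TSS, and other hexamers, search regions and TSS. Python 3.11.15, numpy 2.4.6, pandas 2.3.3, scipy 1.17.1, numba 0.67.0 and matplotlib 3.10.9 were used.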

Additional observations from a re-analysis of the deposited data

How the results depend on the processing

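Of 75 alternatives over 8 results, 59 stayed within 1.5 times the reported count or median, or inside the reported interval of a share, and 16 did not. With the gene body alone, 2 of the 9 genes, Clec12a and Clec4a2, held a peak, with 2 peaks in all, and both peaks held TGTGGT and lay within 1 kb of a TSS (100%). This limit gave 11 other C-type lectin genes, 3 killer lectin receptor genes and 5180 protein-coding genes. The shares were 22.2% of the described genes and 23.1% of protein-coding genes. A limit of 5 kb gave 14 other C-type lectin genes and 5 killer lectin receptor genes. It left 6 of the 9 described genes with a peak, or 66.7%, against 38.4% of protein-coding genes. A limit of 50 kb gave 19 peaks at 8 of the 9 genes, or 88.9%, against 62.5% of protein-coding genes. The median score of these peaks was 17.3 in place of 34.7. Their share within 1 kb of a TSS was 36.8% in place of 50.0%, and 68.4% held TGTGGT in place of 87.5%. Peaks of the upper quartile of score gave 5 peaks at the described genes, 9 other C-type lectin genes, 3 killer lectin receptor genes and 4509 protein-coding genes. Assignment to the nearest TSS gave 7496 protein-coding genes in place of 11270, or 33.5%, and 5 of the 9 described genes, or 55.6%. No paired analysis was possible because the deposited list is 1 call on all samples, so no replicate could be left out. With 8 peaks, the intervals of the shares of peaks are wide.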
